A study of Xenopus laevis with 3 samples.

Results

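The miRNAs described here are those named after *Xenopus* that carry the numbers of miRNAs known from nervous tissue, namely miR-9, miR-124, miR-128, miR-132, miR-137, miR-138, miR-212, miR-219 and miR-338. They were measured in the dorsal part of the *Xenopus laevis* gastrula (stage 10.5), before any neuron has formed. Members were taken by name alone, whatever the letter, copy, arm or suffix. The rule found 12 of the 175 *Xenopus*-named sequences, out of 1985 listed sequences in all, and all 12 carry a *X. tropicalis* name. None of them was miR-137, whose only entry under any species had no read in any library. There were 3 libraries. The Fry-MO library came from embryos that received 20 ng of Fry-MO, a morpholino that blocks translation of *fry*, in both dorsal blastomeres at the 4-cell stage. The Lhx1-AS library came from embryos that received 400 pg of Lhx1-AS, an antisense oligonucleotide that degrades *lhx1* transcripts, in the same cells. The uninjected library came from embryos that were not injected. Each library pooled 30 dorsal pieces from 3 experiments before the RNA was made, so each condition has 1 library. The spread between samples is unknown, and no p-values are reported. Injected embryos carried a fluorescent tracer and were selected by it. As no library came from embryos that received a control oligonucleotide, the effect of depletion and that of injection with selection cannot be told apart.

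MiRNAs are cut from hairpin precursors, each of which can give a product from its 5′ arm and its 3′ arm, and they bind target mRNAs mainly through the seed, bases 2 to 8 of the mature sequence. The set covers several roles in neural tissue. MiR-9 acts in neural progenitors, and in *Xenopus* it is known for its part in the timing of neuron formation. MiR-124 is the most typical miRNA of vertebrate neurons, miR-128 is rich in mammalian brain, miR-138 limits dendritic spines in rat neurons, and miR-132 and miR-212 share a precursor that is induced by neuronal activity in mammals. MiR-219 and miR-338 promote the maturation of myelin-forming glia in mouse.

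The members that the results turn on are shown to tell the mature miRNAs from other sequences listed under their numbers, with the seed in capitals, as DNA letters from 5′ to 3′ as deposited.
miR-338: tCCAGCATcagtgattttgtt
miR-128: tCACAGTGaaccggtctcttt
mir-124-p3: cCAGGAGTggagcct
mir-212-p5: aCCTTGGCtctagactgcttact
miR-138: aGCTGGTGttgtgaatcaggc
miR-9a-5p: tCTTTGGTtatctagctgtatga
miR-132: tAACAGTCtacagccatggtc
mir-219-p3: aGAATTGTgcctggacatctgt
MiR-9a-5p and miR-9b-5p shared the seed CTTTGGT and were the only pair of members with a common seed. MiR-132, the 3′ product of its precursor, and mir-212-p5, a 5′ product, did not share one. The entry mir-124-p3 is not mature miR-124, and whether it comes from the precursor of miR-124 was not tested. It is 15 bases long, the shortest length the authors kept, carries in its name a mark for 1 substituted base, and does not hold AAGGCAC, the seed of mature miR-124. It was the only *Xenopus*-named sequence of 15 bases, while 410 of all 1985 listed sequences had that length. Searched on the strand as listed, AAGGCAC was found in 6 of the 1985 sequences (0.302%), and the only *Xenopus*-named one among them was miR-17-3p. No *Xenopus*-named entry was thus mature miR-124. Its 3′ arm was listed under the names of 2 sea squirts, with 3 reads with Fry-MO, 1 with Lhx1-AS and 0 in the uninjected library. Its 5′ arm was listed under the name of a flatfish, with 4, 8 and 3 reads. Both are shown for comparison with mir-124-p3 above.
csa-miR-124: tAAGGCACgcggtgaatgccaat
pol-miR-124-5p: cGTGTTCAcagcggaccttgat

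The libraries differed in depth and make-up. Listed sequences took 108041 reads with Fry-MO, 56026 with Lhx1-AS and 133894 in the uninjected library. The authors' normalized counts divide the raw reads by a library size parameter, which makes 1 read worth 1.14, 1.29 and 1.09 normalized counts in the same order. *Xenopus* names took 59.4%, 50.1% and 42.0% of the listed reads and placental mammal names 13.9%, 12.6% and 1.97%. The early embryo miRNAs miR-302, miR-427 and miR-428, the usual mark of the blastula and gastrula, together had 15371, 17482 and 46222 reads. Nearly all were of miR-427, whose most read entry had 13081, 15455 and 38438. MiR-428 had only 27, 87 and 31 reads, and the most read entry of miR-302 had 12, 32 and 24. MiRNAs of muscle had 10, 1 and 1 reads. All of these are raw reads, not scaled for the depth of the libraries.

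With Fry-MO 10 of the 12 members had a read, with Lhx1-AS 10, and 9 in the uninjected library. Together they held 440.5 reads with Fry-MO, 83.2 with Lhx1-AS and 61.7 in the uninjected library, which is 0.408%, 0.148% and 0.0461% of the listed reads. A read that matches several listed sequences is divided among them by the authors, so the reads of miR-338, miR-128, miR-9a-5p and miR-9-3p are not whole. The most read member differed between the libraries. In the Fry-MO library it was miR-338, which alone held 77.1% of the members' reads. With Lhx1-AS it was mir-212-p5 (31.3%), and without injection miR-128 (50.3%). Without miR-338 and its other arm, the members held 101 reads with Fry-MO, 69.2 with Lhx1-AS and 50.7 in the uninjected library.

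**Figure D1:**
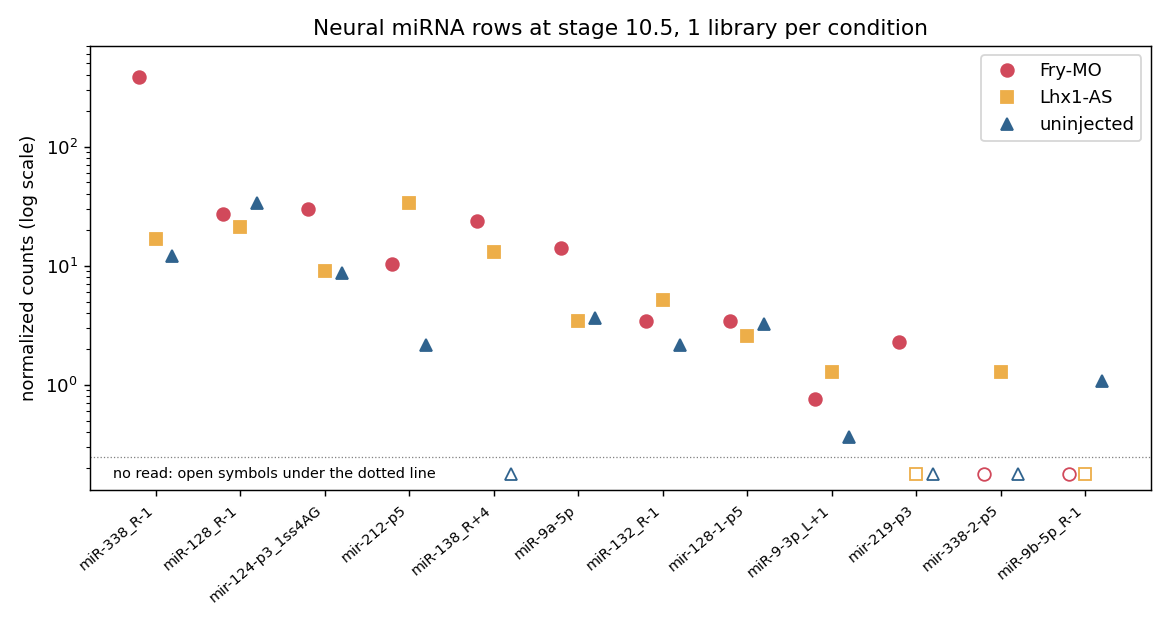
Normalized counts (log scale) of the 12 *Xenopus*-named neural miRNA sequences in the Fry-MO (circles), Lhx1-AS (squares) and uninjected (triangles) libraries, 1 library each, with open symbols where a library had no read. MiR-338 stands at 387 normalized counts in the Fry-MO library, and no other member exceeds 33.7 in any library.

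The order of the members in each library was set against the exact (Poisson) 95% counting interval of their reads, which covers counting error only and is approximate where reads are not whole. In the Fry-MO library miR-338 had 339.5 reads (304.3 to 377.6), rank 27 among the 148 *Xenopus*-named sequences with a read. It was followed by mir-124-p3 with 26 reads (17.0 to 38.1), miR-128 with 24 (15.4 to 35.7), miR-138 with 21 (13 to 32.1) and miR-9a-5p with 12.3 (6.44 to 21.4). The intervals of these 4 overlapped, which does not show that their levels were equal. With Lhx1-AS, mir-212-p5 had 26 reads (17.0 to 38.1), miR-128 had 16.5 (9.52 to 26.6), miR-338 13 (6.92 to 22.2) and miR-138 10 (4.8 to 18.4), with intervals that overlapped between neighbours. In the uninjected library miR-128 had 31 reads (21.1 to 44.0), rank 45 of 141, and stood apart from miR-338 with 11 (5.49 to 19.7) and mir-124-p3 with 8 (3.45 to 15.8). All other members had at most 3.33 reads there. For a sequence with no read a floor of 3 reads was used, a little under the 3.69 reads that the counting interval reaches for a count of 0. The floor is 0.00278% of the listed reads with Fry-MO, 0.00535% with Lhx1-AS and 0.00224% in the uninjected library.

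The question put to the libraries was how each miRNA differed after loss of Fry or of Lhx1. A ratio of normalized counts was taken with the exact (Clopper-Pearson) 95% counting interval of the raw reads of both libraries, and a miRNA with 10 or more reads in either library was called higher at a ratio of 2 or more and lower at 0.5 or less. With Fry-MO, 4 of the 5 members that could be compared with the uninjected library were higher and none was lower. Among all 93 *Xenopus*-named sequences that could be compared, 68.8% were higher and 9.68% lower. Of the 4 higher members, miR-138, miR-9a-5p and mir-124-p3 reached 10 reads with Fry-MO alone, and a sequence that passes only where it is high is bound to look higher, as 20 of all 22 such sequences did. Of the 2 members that reached 10 reads in the uninjected library, miR-338 was higher and miR-128 was not, against 62.0% higher of the 71 sequences that did. The members' count is therefore a description only. Their median log2 ratio, with a pseudocount of 1 normalized count, was 1.70 against 2.02 over the 93. Without mir-124-p3 it was 3.17, which rests in part on the pseudocount, as miR-138 had no uninjected read. Over all 5 members, with no pseudocount and sequences without uninjected reads set against the floor of 3 reads, it was 1.96 against 2.01. In the Lhx1-AS library 2 of 4 members were higher and none lower, against 32.9% higher and 6.33% lower among 79 sequences. Both, mir-212-p5 and miR-138, reached 10 reads with Lhx1-AS alone, as did 8 sequences in all, each of them higher. The 2 members that reached 10 reads in the uninjected library, miR-338 and miR-128, were not called, against 25.4% higher of the 71 sequences that did. The median log2 ratio of the 4 members was 1.95 against 0.33 over the 79. It was 1.24 against 0.35 with no pseudocount and sequences without uninjected reads set against the floor of 3 reads. Both comparisons share the uninjected library. The remaining members had too few reads to be compared.

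**Figure D2:**
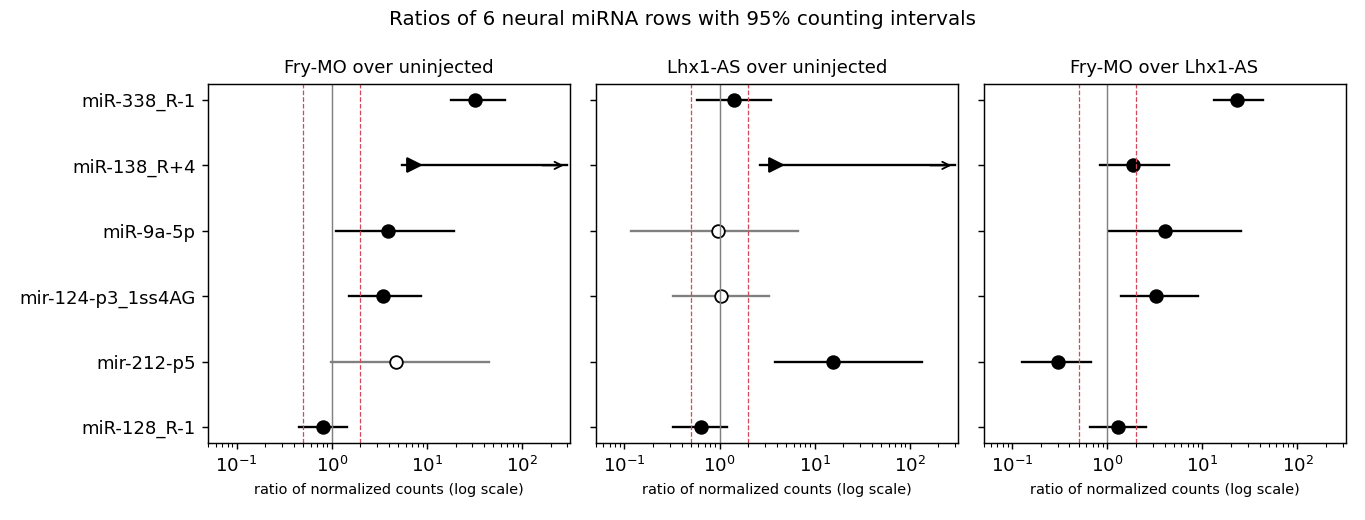
Ratios of normalized counts (log scale) of 6 members in the Fry-MO over uninjected, Lhx1-AS over uninjected and Fry-MO over Lhx1-AS comparisons, with 95% counting intervals as bars. Solid lines mark a ratio of 1 and dashed lines 0.5 and 2, open circles mark members with fewer than 10 reads in both libraries, and triangles are lower bounds where the uninjected library had no read. MiR-338 lies at 32.4 and 1.41 in the comparisons with the uninjected library and miR-128 below 1 in both, which turns to 1.15 with Fry-MO scaled to the mappable reads and to 1.27 with Lhx1-AS scaled to the listed reads.

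Of the miRNAs of glial maturation, miR-338 had 387 normalized counts with Fry-MO, 16.8 with Lhx1-AS and 11.9 in the uninjected library. The Fry-MO library stood far above the other libraries, which lay close together. The ratio was 32.4 (17.9 to 65.5) for Fry-MO and 1.41 (0.582 to 3.47) for Lhx1-AS over uninjected, and 23.0 (13.3 to 43.7) for Fry-MO over Lhx1-AS. The ratio of 32.4 was the second largest among the 93 sequences compared between Fry-MO and uninjected. With scaling to the listed reads, the Lhx1-AS ratio became 2.82 (1.17 to 6.96). Entries named after both arms had reads. Over names of all species, the 3 entries of the 5′ arm had 18 reads with Fry-MO, 3 with Lhx1-AS and none in the uninjected library. Against a floor of 3 uninjected reads the ratio of the 5′ arm was 6.30 with Fry-MO, and the counting interval began lower, at 4.62. The *Xenopus*-named 5′ entry, mir-338-2-p5, held only 1 of these reads, in the Lhx1-AS library. All 18 reads with Fry-MO belonged to an entry named after a lizard. It shared the seed ACAATAT with mir-338-2-p5, but no *Xenopus*-named sequence held its bases 2 to 15. Whether its reads come from the precursor of the *Xenopus* miR-338 was not tested. The 3′ entry named after the same lizard begins with the whole of the *Xenopus* miR-338, and had 12.5 reads in the Fry-MO library, which with the 339.5 make 352.
aca-miR-338-5p: aACAATATcctggtgctgagt
aca-miR-338-3p: tCCAGCATcagtgattttgttga
MiR-219, the other glial miRNA, was at the edge of detection, and nearly all its reads were of 3′ entries. Its *Xenopus*-named entry mir-219-p3 had 2 reads in the Fry-MO library and none in the other libraries. With 2 entries of the same arm named after placental mammals it reached 7 reads with Fry-MO, 1 with Lhx1-AS and 0 in the uninjected library. No *Xenopus*-named entry of the 5′ arm was listed. The only 5′ entry, named after an opossum, had 1 read, with Lhx1-AS. The values of miR-219 therefore describe its 3′ arm and not its 5′ product.

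Of the neuronal miRNAs, miR-138 was seen in the injected libraries alone. It had 23.9 normalized counts (21 reads) with Fry-MO, 12.9 (10 reads) with Lhx1-AS and no read in the uninjected library. That library was the deepest by listed reads, but not by *Xenopus*-named reads. It had 56204 of these, against 64202 with Fry-MO and 28084 with Lhx1-AS. Against a floor of 3 uninjected reads, its ratio was 7.35 with Fry-MO and 3.97 with Lhx1-AS, and the counting intervals began lower, at 5.47 and 2.67. The ratio of Fry-MO to Lhx1-AS was 1.85 with an interval that held 1 (0.835 to 4.40). Adding the 3 entries of miR-138 under other names gave 22, 15.1 and 0 reads.

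MiR-128 was the one member with enough reads that did not exceed the uninjected library. It had 27.4 normalized counts with Fry-MO, 21.3 with Lhx1-AS and 33.7 in the uninjected library. The intervals of its ratios held 1, at 0.813 (0.456 to 1.43) with Fry-MO and 0.634 (0.326 to 1.19) with Lhx1-AS, so no difference was detectable at this depth. The direction of the Fry-MO ratio turned with scaling to the mappable reads (1.15), and that of the Lhx1-AS ratio with scaling to the listed reads (1.27). The 5′ product mir-128-1-p5 had 3, 2 and 3 reads in the Fry-MO, Lhx1-AS and uninjected libraries.

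MiR-132 and miR-212, which come from a common precursor transcript, differed in their reads. Mir-212-p5 had 10.3 normalized counts (9 reads) in the Fry-MO library, 33.6 (26 reads) in the Lhx1-AS library and 2.17 (2 reads) in the uninjected library. By the authors' normalization it was the only member with its highest level in the Lhx1-AS library among the 6 with at least 10 reads in any library. As a share of listed reads miR-128 was highest there too, with 0.0295% against 0.0222% with Fry-MO and 0.0232% in the uninjected library. With Fry-MO the ratio of mir-212-p5 to uninjected was 4.72 (0.978 to 44.9), where neither library reached 10 reads. With Lhx1-AS the ratio was 15.5 (3.87 to 134.5). The ratio of Fry-MO to Lhx1-AS was 0.305 (0.126 to 0.672), and it stayed at or below 0.399 in every scaling tried. MiR-132 had 3, 4 and 2 reads, and the ratio of Lhx1-AS to uninjected of 2.38 had an interval of 0.341 to 26.3. Its 5 entries under names of other species had 8 reads with Fry-MO, 5.11 with Lhx1-AS and 2 in the uninjected library. The 2 uninjected reads were of an entry of 15 bases. An entry of 15 bases named after human mir-212 ran the other way, with 2, 4 and 16 reads in the Fry-MO, Lhx1-AS and uninjected libraries.

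The entry mir-124-p3 had 29.6 normalized counts with Fry-MO, 9.05 with Lhx1-AS and 8.69 in the uninjected library. Its ratio to uninjected was 3.41 (1.5 to 8.72) with Fry-MO and 1.04 (0.321 to 3.29) with Lhx1-AS. As this entry is not the mature miRNA, the 3 entries of the mature arms under other names were summed. They had 7 reads with Fry-MO, 9 with Lhx1-AS and 3 in the uninjected library, with ratios to uninjected of 2.45 (0.559 to 14.7) and 3.57 (0.891 to 20.5), both with intervals that held 1. Without mir-124-p3, 3 of 4 members were higher with Fry-MO.

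MiR-9, of neural progenitors, had few reads in every library. MiR-9a-5p lay near the floor of 3 reads outside the Fry-MO library, with 2.67 reads (0.480 to 8.26) with Lhx1-AS and 3.33 (0.767 to 9.27) in the uninjected library. MiR-9a-5p had 14.1 normalized counts with Fry-MO, 3.45 with Lhx1-AS and 3.62 in the uninjected library, and the ratio of Fry-MO to uninjected was 3.88 (1.10 to 19.3). With TMM scaling the interval reached below 1 (3.12, 0.885 to 15.5). MiR-9b-5p had 1 read, in the uninjected library. Reads were seen from the opposite arm too. Over all names but leaving out a 5′ entry of 15 bases (1 read, with Fry-MO), the 3′ arm had 11.7 reads with Fry-MO, 7.67 with Lhx1-AS and 4 in the uninjected library, against 12.3, 2.67 and 4.33 for the 5′ arm. The *Xenopus*-named 3′ entry, miR-9-3p, held only 0.667, 1 and 0.333 of the 3′ reads. The most read 3′ entry, named after a flatfish, held 8, 4 and 2. The ratio of Fry-MO to uninjected was 3.06 (0.921 to 13.1) for the 3′ arm and 2.99 (0.939 to 11.9) for the 5′ arm, with intervals that held 1.

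**Figure D3:**
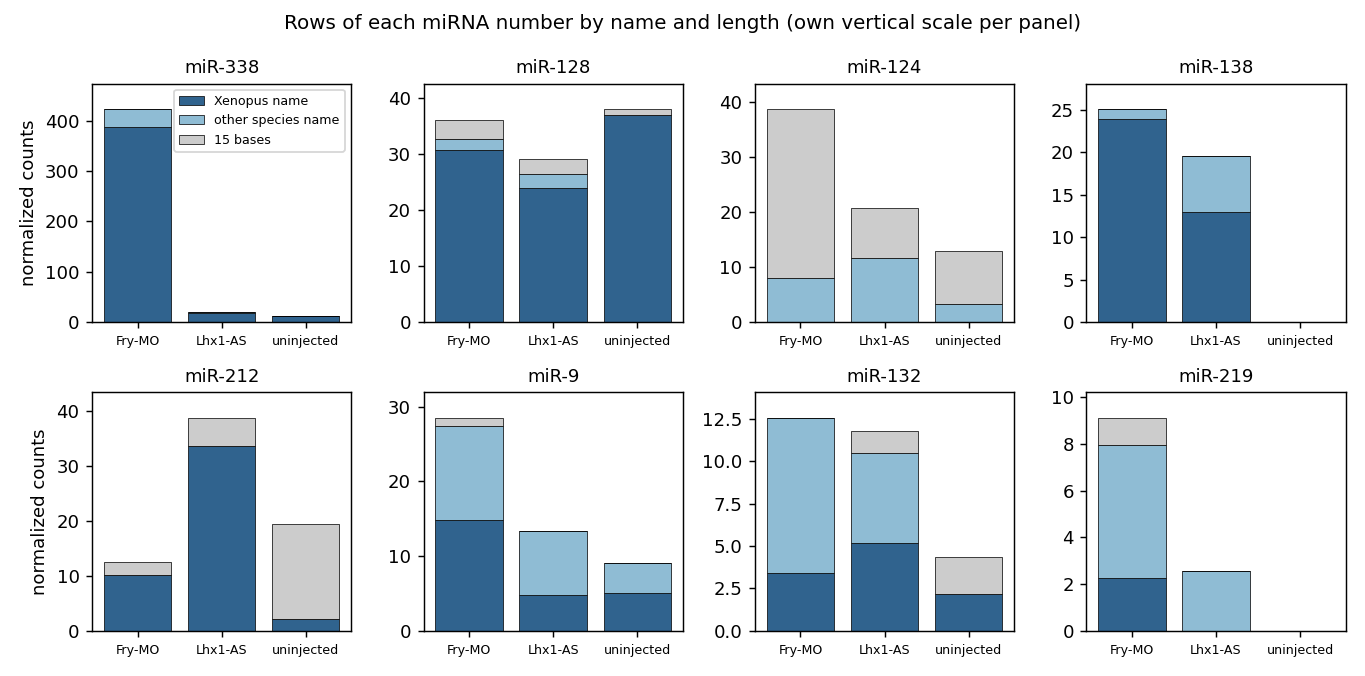
Normalized counts of all entries of each miRNA number, from left to right in the Fry-MO, Lhx1-AS and uninjected libraries, stacked by *Xenopus* names, names of other species and entries of 15 bases, on a linear scale of its own in each panel. Entries of 15 bases make up most of miR-124 in the Fry-MO and uninjected libraries and most of miR-212 in the uninjected library, and all entries of miR-138 and miR-219 are at 0 in the uninjected library.

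The Fry-MO and Lhx1-AS libraries were also compared directly. Of 6 members, 3 were higher with Fry-MO (miR-338, miR-9a-5p and mir-124-p3) and 1 was lower (mir-212-p5), against 55.2% higher and 9.38% lower (64.6% in either direction) among 96 sequences. MiR-9a-5p and mir-124-p3 reached 10 reads with Fry-MO alone, as did 19 sequences in all, of which 16 were higher and 0 lower. Mir-212-p5 reached 10 reads with Lhx1-AS alone, so it was bound to look lower. Of the 77 sequences that reached 10 reads with Lhx1-AS, 48.1% were higher and 11.7% lower. The members' count is a description only here too. Scaled to the listed reads, which moves every log2 ratio of this comparison by -0.77, 2 members were higher and 1 lower, and the shares over the 96 were 42.7% and 21.9%. The ratio was 4.08 (1.05 to 25.5) for miR-9a-5p and 3.28 (1.38 to 8.94) for mir-124-p3. For miR-128 it was 1.28 (0.657 to 2.56). Scaled to the listed reads, the ratio was 2.40 (0.618 to 15.01) for miR-9a-5p, 1.93 (0.814 to 5.26) for mir-124-p3 and 0.754 (0.387 to 1.51) for miR-128, all with intervals that held 1, and 13.5 (7.81 to 25.7) for miR-338. With TMM and median-of-ratios scaling the interval of miR-9a-5p also reached below 1 (0.935 and 0.897).

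**Figure D4:**
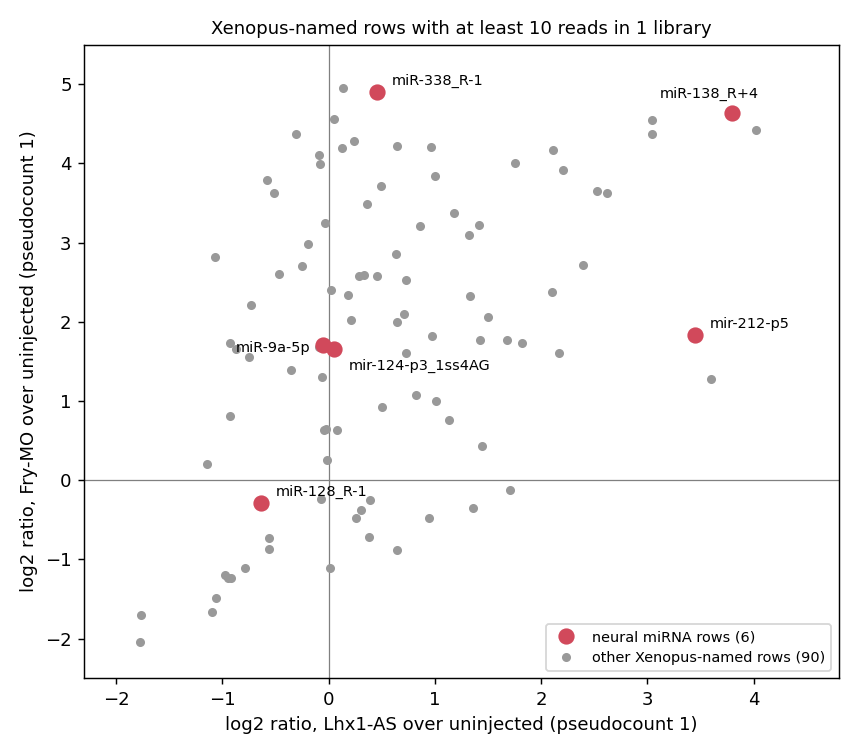
Log2 ratios to the uninjected library (pseudocount of 1 normalized count) with Fry-MO (vertical) and Lhx1-AS (horizontal) for 6 members and 90 other *Xenopus*-named sequences that had at least 10 reads in 1 library of a comparison. Both axes share the uninjected library. The members do not lie together, as miR-338 is high on the Fry-MO axis only, mir-212-p5 far along the Lhx1-AS axis, miR-138 high on both and miR-128 under 0 on both by the authors' normalization, though not in every scaling. MiR-138 had no uninjected read, so its position rests on the pseudocount. Against a floor of 3 uninjected reads its log2 ratios are 2.88 with Fry-MO and 1.99 with Lhx1-AS. The position of mir-212-p5 rests on 2 uninjected reads.

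The 3 sequences nearest to miR-338 by their ratios were miRNAs of the sensory cluster, but others had similar ratios. Among 72 other *Xenopus*-named sequences with at least 50 reads, the nearest in the 2 log2 ratios to uninjected were miR-96 (distance 0.33), miR-183 (0.53) and miR-182-5p (0.67), which mark hair cells and other sensory cells. MiR-96 had 1 read with Lhx1-AS and 1 in the uninjected library, so its Lhx1-AS ratio was not measured and its distance rests on the pseudocount. MiR-183, the most read of these, had 1228 normalized counts with Fry-MO, 53.0 with Lhx1-AS and 51.1 in the uninjected library. The nearest to miR-128 were miR-15c (0.45), miR-16b (0.58) and miR-125a (0.83). The likeness rests on 3 libraries.

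Other values were set beside these ratios. Names of other species carried 34 further entries of the same 9 numbers. They had 73.2 reads with Fry-MO, 37.9 with Lhx1-AS and 26.7 in the uninjected library. Their summed ratio to uninjected was 2.88 (1.83 to 4.67) with Fry-MO and 1.69 (1.003 to 2.89) with Lhx1-AS. For the 12 *Xenopus* names it was 7.50 (5.73 to 9.95) and 1.61 (1.14 to 2.27). The 7.50 rests mainly on miR-338, which held 77.1% of the members' reads with Fry-MO. Without miR-338 and its other arm, the members had 101 reads with Fry-MO and 50.7 in the uninjected library. Entries of miR-338 under other names held 31.5 of the 73.2 reads with Fry-MO. Of the 34, the 8 named after placental mammals lay below 1, at 0.566 (0.224 to 1.34) and 0.365 (0.108 to 1.02), with intervals that held 1. Of their 17 uninjected reads, 16 were of the 15-base entry named after human mir-212. Leaving out the entries of 15 bases, a choice made after seeing the data, gave 10.3 (4.63 to 27.2) and 5.51 (2.34 to 15.2) for other names. For *Xenopus* names it gave 8.11 (6.09 to 10.99) and 1.69 (1.18 to 2.44). These sums include miR-338 too. The Dlk1-Dio3 cluster, miRNAs of placental mammals that are rich in brain, had no *Xenopus*-named entry and 1379 normalized counts with Fry-MO, 82.1 with Lhx1-AS and 49.97 in the uninjected library. Of its 40 listed entries 39 had a read. MiRNAs of blood and endothelium under *Xenopus* names had 5440.2, 445 and 393 normalized counts. All 5 with enough reads were higher with Fry-MO, against 68.8% of the 93 *Xenopus*-named sequences compared. The part of these other sequences in the differences of the neural miRNAs was not tested. A read of a conserved mature sequence cannot be assigned to a species by its sequence.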

How the data were processed

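The authors sequenced small RNA as reads of 40 bases, removed the adapter, retained those 15 to 32 bases long and assigned them with ACGT101-miR 4.2 to miRBase entries and chordate genomes (release and builds: not given in the sources used here). Deposited raw values are expected counts of reads per sequence, in which shared reads are divided, and the authors' normalized signal divides these by a library size parameter (0.877 for Fry-MO, 0.773 for Lhx1-AS and 0.921 for uninjected), with 0 written as 0.001, taken here as 0. The derivation of this parameter is likewise not given there. Reads per step came from the deposited read summary, with 2125966 mappable reads in the Fry-MO, 2451390 in the Lhx1-AS and 3157393 in the uninjected library.

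The table holds 1985 sequences, and 2 lines were not analysed here. Members were matched by prefix and number, and all of them are named. The members, the lists of other miRNAs and the rule for names were chosen with earlier results of these data known. Sums over arms, the 15-base entries and the printed sequences under other names were chosen after their values were seen. With 1 library per condition no test was run. Ratios and their intervals were computed over all *Xenopus*-named sequences. A count of 0 was set to 3 reads, and a pair of libraries that both had 3 reads or fewer gave no fold. The calculation was tested on simulated data. The alternatives were TMM (edgeR 4.0.16) and median-of-ratios (DESeq2 1.42.0) factors on rounded reads, used for scaling only, scaling to the listed or mappable reads, other read minimums and folds, calls by interval, entries of a number summed, all species summed and a pseudocount of 10. Leaving out 15-base entries was added after seeing the data. Python 3.11.15, scipy 1.17.1, pandas 2.3.3, numpy 2.4.6, matplotlib 3.10.9 and R 4.3.3 were used.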

Additional observations from a re-analysis of the deposited data

Results flagged for a closer look

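Reads appeared in entries that the comparisons did not use, above their level in the uninjected library. The Dlk1-Dio3 cluster of placental mammals reached 1379 normalized counts in the Fry-MO library and 82.1 in the Lhx1-AS library, against 49.97 in the uninjected library. The rodent X-linked cluster, listed with earlier results known, had 23.9 normalized counts in the Fry-MO library and 2340.1 in the Lhx1-AS library, against 13.03 in the uninjected library, and its Fry-MO ratio of 1.84 had a counting interval of 0.863 to 4.10. Mir-212-p5 also had its highest level with Lhx1-AS. Whether these entries bear on the neural miRNAs was not tested.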

How the results depend on the processing

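Of 122 recomputed ratios of single members 120 stayed within the counting interval of the reported value (or within 2-fold of a ratio against the floor) and none of the called ones turned direction. The other 2 were Lhx1-AS ratios scaled to the listed reads, 7.97 for miR-138 and 1.27 for miR-128. Many of the 122 changed only the read minimum, the fold or the calling rule, which leaves a ratio as it is by construction. Only a change of scaling could move a ratio, so the count of 120 is no measure of stability. The number of members called kept within 1.5 times in 29 of 36 recomputations. With at least 50 reads, 1 of 1 member was called in Fry-MO over uninjected and 1 of 1 in Fry-MO over Lhx1-AS. This was miR-338, with log2 ratios of 4.91 and 4.45. In Lhx1-AS over uninjected 0 members were called. As 0 members had as many reads there, this count says nothing about them. Of *Xenopus*-named sequences with as many reads, 86.7%, 70.7% and 37.2% were called in Fry-MO over uninjected, Fry-MO over Lhx1-AS and Lhx1-AS over uninjected. At 4-fold 2 of 5 members were called with Fry-MO, 1 of 4 with Lhx1-AS and 2 of 6 between the injected libraries. Of all *Xenopus*-named sequences compared, 51.6%, 13.9% and 38.5% were called in the same order. Summed over all species 1 of 6 was called with Lhx1-AS, as the 15-base human-named entry took the miR-212 ratio to 1.98, and the median log2 ratio became 0.69 in place of 1.95. With no read minimum that median was 0.46, and with a pseudocount of 10 it was 0.74. The median of Fry-MO over Lhx1-AS was 1.22, and became 0.51 scaled to the listed reads, 0.35 summed over all species, 0.84 without 15-base entries and 0.70 with a pseudocount of 10. The median of Fry-MO over uninjected was 1.08 with a pseudocount of 10 and 3.17 without 15-base entries. The 3.17 rests in part on the pseudocount, as miR-138 had no uninjected read. Relative to the authors' normalization, scaling to the listed reads moved every log2 ratio to uninjected by 0.24 with Fry-MO and 1.01 with Lhx1-AS, TMM by -0.32 and -0.15, median of ratios by -0.32 and -0.09, and scaling to the mappable reads by 0.50 and 0.11. Scaled to the listed reads 63.3% of the *Xenopus*-named sequences were higher with Lhx1-AS and none was lower. No paired analysis was possible because each condition has 1 library. Depth limits every member but miR-338, as no other had more than 31 reads in any library.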

Other observations

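Among 10 *Xenopus*-named entries of other miRNAs known from neural tissue (miR-7, miR-34, miR-129, miR-135, miR-153, miR-184, miR-204, miR-211 and miR-218), 9 had a read and only miR-204 and miR-7 had enough reads to be compared. MiR-204, known from the eye and the choroid plexus, had 257.7 normalized counts with Fry-MO, 32.3 with Lhx1-AS and 38.6 in uninjected embryos, with ratios to uninjected of 6.68 (4.68 to 9.81) and 0.838 (0.482 to 1.44). MiR-7, of neurons and endocrine cells, had 4.94, 28.7 and 1.45 normalized counts (4.33, 22.2 and 1.33 reads). Its ratio of Lhx1-AS to uninjected was 19.8 (3.85 to 374.9), and that of Fry-MO to Lhx1-AS was 0.172 (0.0460 to 0.491). It had its highest level in the Lhx1-AS library, as did mir-212-p5. Both reached 10 reads in that library alone, so both were bound to look high there. All 8 sequences that did so in the comparison with uninjected were higher.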
